A study of Mus musculus with 12 samples.

Results

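A set of 110 genes carried many ribosome footprints and almost no RNA counts in the mouse left ventricle. The members were the transcript names whose raw counts summed to at least 600 over the 6 ribosome footprint libraries and to at most 12 over the 6 RNA libraries, out of 21669 names in the count tables. A further 3 names met both limits and were left out because the rule bars certain gene names. Of the 5722 names with at least 600 footprint counts that the rule allows, the 110 members made up 1.92%, and the other 5612 are used here for comparison. The members were thus chosen by their measured RPF and RNA counts, and these levels are described without a test.

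The libraries came from left ventricular tissue of adult mouse hearts, either wild type (WT, the genotype control) or Rpl3l-/- (knockout, KO), which lack a muscle-type paralog of the large-subunit ribosomal protein Rpl3. Ribosome-protected fragments (RPF) were made by RNase I digestion of a cycloheximide-treated lysate, and RNA libraries were made from polyadenylated RNA of undigested lysate. Each genotype had 3 RPF and 3 RNA libraries, 12 in 4 groups, which the series describes as biological triplicates; the labels give no age beyond adult and no sex. Whether an RPF and an RNA library with the same number came from the same heart is not given in the sources used here.

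A ribosome that is stopped on an mRNA shields a short stretch of it from nuclease, so footprints come from mRNAs that ribosomes occupy, while RNA libraries sample the mRNA itself. Selection on oligo(dT) keeps mRNAs that end in a poly(A) tail. The mRNAs of replication-dependent histones are the known exception in animal cells, since they end after a conserved stem-loop and carry no poly(A) tail. The 3′ UTR is the part of an mRNA after the stop codon, and ribosomes that have ended translation do not read it.

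Total counts ranged from 3827862 to 7474602 in the RPF libraries and from 6635242 to 8459004 in the RNA libraries, so 3 counts, used as the floor of detection, corresponded to 0.401 to 0.784 counts per 1e6 counts (CPM) in RPF and 0.355 to 0.452 CPM in RNA. Rpl3l itself had 937, 985 and 1108 RPF counts in WT 1 to 3 and 65, 30 and 61 in KO 1 to 3, so the labels of the footprint libraries matched the deleted gene. In RNA it had 2987, 2726 and 3329 counts across WT and 276, 310 and 442 across KO. All 10 markers in a list for heart muscle cells were detected in both assays, and a list for testis germ cells had 4 of 6 genes at 0 in every RPF library. In RPF library WT 1, 317 of the 11153 names tested for a genotype difference (2.84%) had more than 2 times the CPM of the higher of the other WT libraries. The same count was 198 for WT 2 and 175 for WT 3, and 146, 86 and 124 for KO 1 to 3. Log2 fold changes of the members high in WT 1 are given as ranges with and without it. The WT share of counts and the counts of members at an unadjusted p or without overlap of libraries include it.

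The members' footprints were spread over all libraries, and their RNA was at or near 0 in all of them. No member was at 0 counts in any RPF library, while 32 to 53 of the 110 were at 0 in a given RNA library. Together they took 22546, 14529 and 17683 RPF counts in WT and 30378, 25460 and 18294 in KO, against 99, 118 and 166 RNA counts in WT and 121, 132 and 165 in KO. As a share of all counts this was 0.405% ± 0.0437 in RPF WT and 0.388% ± 0.0190 in RPF KO (SD, n = 3 each), and the single libraries overlapped. In RNA the share lay between 0.00118% and 0.00206%. In tissue as a whole, the RNA level taken alone cannot tell fewer cells of a type from less RNA per cell. The cause of low RNA beside many footprints was not tested.

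**Figure D1:**
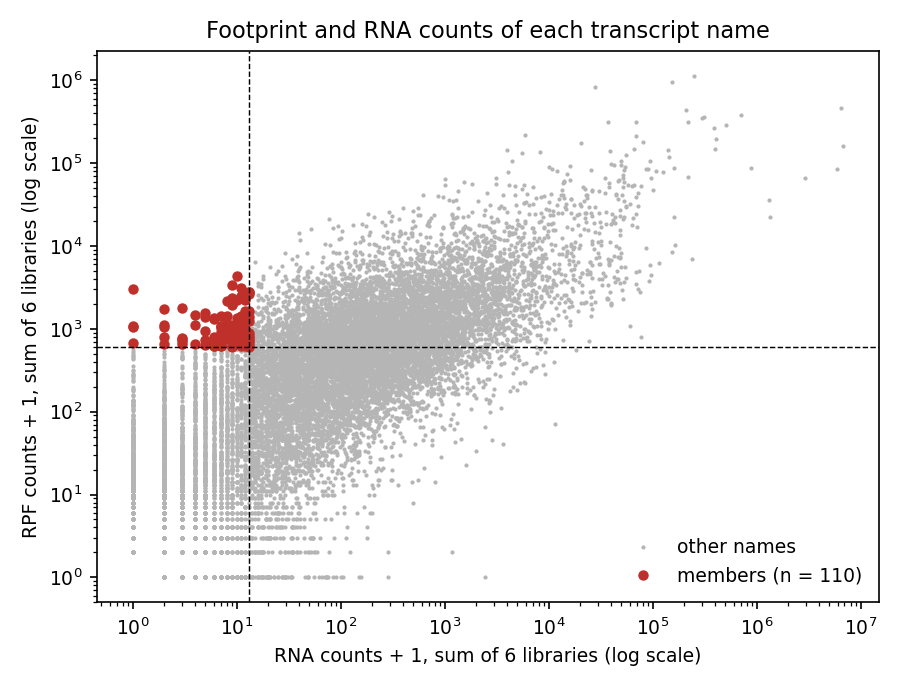
Summed RPF counts + 1 against summed RNA counts + 1 for each transcript name, 6 libraries per axis, both axes on a log scale; red points are the 110 members and dashed lines mark the limits of 600 RPF and 12 RNA counts. The members fill the corner above 600 and left of 12 without a gap to the names around them, and the highest, Timp3, lies at 4374 RPF counts.

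The summed RPF count of a member ranged from 602 to 4374 with a median of 928, and its RNA count from 0 to 12 with a median of 8. The comparison names had a median of 1546.5 RPF and 438 RNA counts, with quartiles of 133 and 1408.5 for RNA. The limits cut through a continuum. Just inside the RPF limit were Edem3 (602 counts), Plekhg1 (608) and S1pr3 (612), and just outside it Necap1 (597), Arrb1 (597) and Alg10b (591). At the RNA limit 13 members had 12 counts, among them Tmem245, Ntn1 and Thbs1, and 10 names just outside had 13, among them Sdc4 (1490 RPF counts), Scd2 (1139) and Dipk2a (1030).

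The 4 histone members carry the one sequence feature in the set that is known to replace a poly(A) tail. All 4, the linker histone Hist1h1e and the core H4 genes Hist1h4c, Hist1h4d and Hist2h4, are annotated as single exons, and a search of their 3′ UTRs for the pattern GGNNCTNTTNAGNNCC (N is any base, transcript strand) found it once in each. The matches began between 34 and 41 bases after the stop codon. The annotated 3′ UTRs run on past the match, to 1209 bases in Hist1h1e, 503 in Hist1h4c, 822 in Hist1h4d and 1311 in Hist2h4. The Hist2h4 model also has a poly(A) signal (AATAAA or ATTAAA) close to its annotated end, which the other histone members lack. Whether these mRNAs ended at the stem-loop in these hearts was not tested. The matches are given here as DNA letters of GENCODE M21 transcripts (build GRCm38), with the stem-loop pattern in capitals.
Hist1h1e: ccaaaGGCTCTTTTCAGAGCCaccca
Hist1h4c: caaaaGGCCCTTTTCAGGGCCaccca
Hist1h4d: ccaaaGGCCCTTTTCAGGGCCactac
Hist2h4: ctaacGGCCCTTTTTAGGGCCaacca
Of 21425 3′ UTRs read, 87 (0.406%) held the pattern, 44 of them in histone genes and 43 in others. A match describes letters only.

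The 3 H4 members encode the same core histone from different genes, so their footprints were compared for shared sequence. Bases 9 to 36 of each coding sequence are shown because a footprint of this length can be told apart between them, with the positions at which they are not all the same in capitals.
Hist1h4c: ACgTggTaaGggTggTaaAggCctTggG
Hist1h4d: ACgCggGaaAggCggCaaGggTctTggT
Hist2h4: CAgAggAaaGggTggAaaGggTctAggC
Over the 28 bases, Hist1h4c and Hist1h4d differed at 8 positions, and each differed from Hist2h4 at 9. Over the whole coding sequence of 312 bases, Hist1h4c was 92.6% identical to Hist1h4d and 87.8% to Hist2h4, and 87 and 12 of its 285 windows of 28 bases occurred in them unchanged. Counts of single H4 genes are therefore uncertain, since how reads matching more than 1 gene were assigned is not given in the sources used here.

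Hist1h4c had 159, 142 and 138 RPF counts in WT and 260, 230 and 172 in KO, and 1 RNA count in all. Hist1h4d had 84, 101 and 207 in WT and 119, 134 and 126 in KO with 2 RNA counts, and Hist2h4 had 60, 89 and 129 in WT and 132, 102 and 137 in KO with 1. Hist1h1e, which packs the DNA between nucleosomes, had 171, 165 and 249 in WT and 268, 323 and 202 in KO with 4. WT and KO libraries overlapped in CPM for each of the 4. A symbol search for replication-dependent histones found 67 names, 44 of them with the stem-loop pattern. Over the 67 there were 11414 RPF and 343 RNA counts. Of the RNA counts, 90 were of Hist1h2bc, which lacks the pattern and had 0 RPF counts. In all, 63 of the 67 names had 12 RNA counts or fewer. Among those with at least 100 RPF counts, 14 of 17 (82.4%) had 12 RNA counts or fewer, against 718 of 10340 other names (6.94%). The exceptions were Hist1h1c (2565 RPF, 118 RNA counts), Hist3h2a (758, 64) and Hist1h4h (474, 30), all of which hold the stem-loop pattern too. Among the 14, Hist2h2bb (529, 0), Hist1h1b (435, 0), Hist1h1a (233, 0) and Hist2h2be (108, 1) had no match. The annotated 3′ UTR of Hist2h2bb and of Hist1h1b has 0 bases. The 2 shares use the rule's own RNA limit, and the 14 names include the 4 members. Histone and other names were not matched for footprint count, so the shares are a description only. Hist1h1e overlaps exons of Hist1h2be on the same strand, which had 144 RPF counts and 1 RNA count.

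The feature most members shared was a long 3′ UTR. Of the 110 names, 108 matched a transcript of GENCODE M21, all protein coding. The median 3′ UTR of these was 2716 bases (quartiles 1945 and 3622.5), against 975 (391 and 2004) in the comparison names and 782 over all 21428 matched names. It was longer than 1000 bases in 100 members (92.6%, against 49.2% of comparison names), longer than 2000 in 79 (73.1% against 25.1%) and longer than 3000 in 46 (42.6% against 12.4%). In 92 members (85.2%) it was longer than the coding sequence, against 35.1% of comparison names. With the 4 histones left out the median was 2776 bases, and with the longest 3′ UTR of any coding transcript of each gene it was 2839.5 in members and 1302 in comparison names. These are annotated lengths, and which end an mRNA used in these hearts was not measured.

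**Figure D2:**
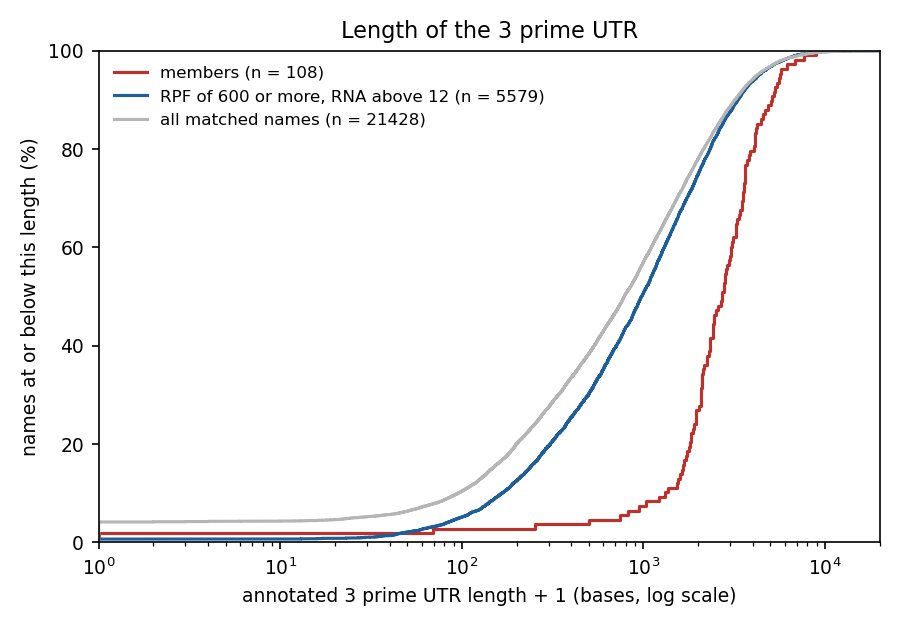
Cumulative share of names (%) against annotated 3′ UTR length + 1 in bases (log scale) for 108 members, 5579 comparison names and all 21428 matched names. The red line of the members rises mainly between 1000 and 5000 bases, where 100 of 108 lie above 1000, to the right of both other lines.

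The other parts of the transcript were compared in the same way. Median coding length was 1203 bases in members and 1443 in comparison names, and median 5′ UTR length 210 and 169 bases. The members had fewer exons, a median of 6 against 11, and 20 of them (18.5%) had 1 or 2 exons, against 3.73%. The share of G and C was 54.8% in the median coding sequence against 52.6%, and 44.2% in the median 3′ UTR against 44.6%. A poly(A) signal (AATAAA or ATTAAA) lay in the last 50 bases of 83.3% of members, 79.6% of comparison names and 72.0% of all names.

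RNA per footprint was also lower at longer 3′ UTRs among the names that are not members. The measure was log2 of (RNA + 1)/(RPF + 1), with counts summed over the 6 libraries of each assay and not scaled for depth. Its median was 0.53 for 3′ UTRs of 0 to 50 bases, -0.06 at 51 to 200, -1.01 at 201 to 500, -2.22 at 501 to 1000, -2.90 at 1001 to 1500 and -3.38 at 1501 to 2000. Beyond that it stayed between -3.25 and -3.37. The share of names that were members was 1.6% at 0 to 50 bases, where it came from 2 members of 125 names, 0.172% at 51 to 200, 0.102% at 201 to 500, 0.348% at 501 to 1000, 0.499% at 1001 to 1500, 3.01% at 1501 to 2000, 4.47% at 2001 to 3000, 6.20% at 3001 to 5000 and 6.25% over 5000.

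The same order was present in both genotypes, with medians of 0.26 at 51 to 200 bases and -3.03 at 3001 to 5000 in WT, and of -0.35 and -3.58 in KO. Among names with 1001 to 1500 coding bases, the median was -0.63 at 0 to 50 bases, a class of 13 names, -0.14 at 51 to 200, -2.27 at 501 to 1000 and -4.27 over 5000, with 37 names in the last class. From 51 bases on, it was lower in each longer class. Across the 5579 comparison names Spearman's rho with this measure was -0.49 for 3′ UTR length, -0.20 for coding length, -0.10 for exon number and -0.10 for 5′ UTR length. These points share libraries and annotation and are given as a description. Within the 108 members, whose RNA range the rule cuts to 12 counts, rho with 3′ UTR length was 0.16. The part of the transcript that was counted is not given in the sources used here, and whether 3′ UTR length itself lowers RNA counts was not tested.

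**Figure D3:**
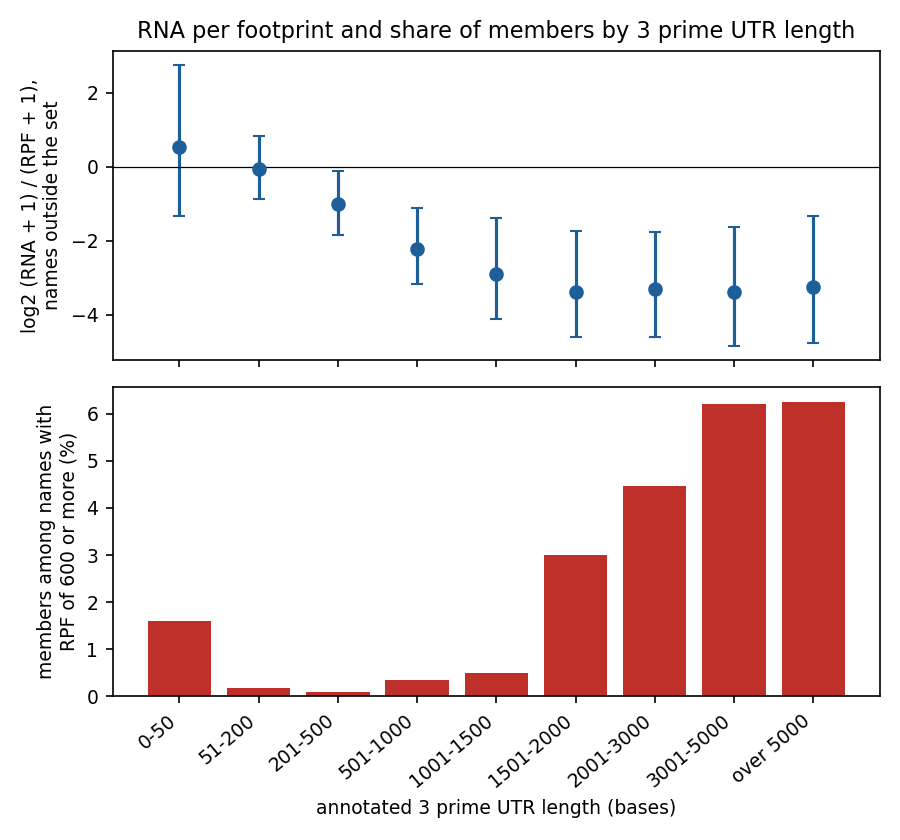
Top, median log2 (RNA + 1)/(RPF + 1) of names outside the set by annotated 3′ UTR length in bases, with bars from the lower to the upper quartile; bottom, members as a percentage of names with at least 600 RPF counts in the same classes. The median drops from 0.53 to -3.38 by 1501 to 2000 bases and is level after that, while the share of members is 1.6% in the first class, 0.102% at 201 to 500 bases and 6.25% over 5000.

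A few members had no long 3′ UTR. Of 4 with 500 bases or less, 2 had models with none at all. Tmem245, a many-pass membrane protein, is listed through a transcript without UTRs (chr4:56880247-56947411, minus strand, 18 exons), but another transcript of the gene has 13324 bases. Gm20671 is a predicted gene of 12 exons without UTRs (chr5:32737230-32827109, minus strand) that spans exons of Prr14l and Pisd on the same strand, and 98.8% of its 28-base coding windows occur in another gene. It had 149, 98 and 82 RPF counts in WT and 146, 123 and 92 in KO, while Prr14l had 136 RPF and 22 RNA counts and Pisd 59 and 80. Nt5c1a, a cytosolic enzyme that makes adenosine from AMP, had a 3′ UTR of 68 bases, and Asgr1, a liver receptor for galactose-ending glycoproteins, one of 251. At the other end were the zinc finger gene Zfp871 (8856 bases), the phosphatase Ppm1l (7628) and the antiviral ubiquitin ligase Trim56 (6812).

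Shared coding sequence touched few members. For 82 of them (75.9%) no 28-base coding window occurred in another gene, against 66.4% of comparison names, and 6 (5.56%) shared more than 50% of their windows, against 8.17%. Besides Gm20671 these were Ppp3r1, the regulatory subunit of calcineurin (89.5%, all with a transcript of its neighbour Wdr92), Uevld (82.3%, with a processed pseudogene), Hist1h4c (64.2%), Hist1h4d (58.6%) and Blcap (50.2%, with a processed pseudogene). Wdr92 itself had 827 RPF and 34 RNA counts. Over whole transcripts, the median share of such windows was 0.285% in members against 0.0594% in comparison names. The upper quartile was 1.625% against 2.077%. Exons of 25 of the 108 matched members overlapped another annotated gene, 20 of them on the opposite strand. Timp3 overlaps Syn3 there over 1733 bases, and Syn3 had 22 RPF counts and 1 RNA count. RNA libraries were made with a directional kit, but whether counting used strand is not given, so overlapping genes are uncertain.

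The 8 secreted and matrix proteins had the highest median footprint count of the role groups, 2005.5, and held 4 of the 10 members with most counts. Counts per library here and in the groups below are raw. KO 1 and KO 2 had the highest RPF totals (7474602 and 6910017, the others at most 4948766), so raw counts do not compare the genotypes. They had between 965 and 4374 RPF and between 6 and 12 RNA counts, and 3′ UTRs of 1652 to 4435 bases. Timp3, the matrix-bound inhibitor of metalloproteinases (chr10:86300372-86349506, plus strand, 5 exons), had 637, 448 and 646 counts in WT and 945, 1096 and 602 in KO. In RNA it had 0, 2 and 4 counts in WT and 2, 1 and 0 in KO. Its coding sequence of 636 bases is followed by a 3′ UTR of 3604, and per kilobase of coding sequence it had the highest footprint count of the members, 6877 against a median of 784.

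Twsg1, a secreted regulator of BMP signals (chr17:65923065-65951226, minus strand), had 408, 387 and 391 RPF counts in WT and 989, 524 and 416 in KO, and 10 RNA counts. Ntn1, the guidance cue netrin 1, had 424, 361 and 401 in WT and 609, 655 and 340 in KO, and Thbs1, thrombospondin 1, had 488, 221 and 224 in WT and 680, 562 and 426 in KO, with 12 RNA counts each. Scaled to CPM, WT and KO libraries of these 4 genes overlapped. The group also held Fmod, a small matrix proteoglycan, Kitl, the ligand of the Kit receptor, and Bche, a cholinesterase.

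The 14 receptors and adhesion proteins had 612 to 2988 RPF and 0 to 12 RNA counts. Itgav, the alpha V integrin subunit that binds matrix proteins (chr2:83724397-83806916, plus strand, 30 exons), had 352, 213 and 337 RPF counts in WT and 550, 667 and 362 in KO, and 10 RNA counts. The group also held receptors of endothelial and stromal cells (Ednrb for endothelin, Calcrl for calcitonin-family peptides, S1pr3 and Lpar1 for lysophospholipids, Ddr2 for collagen, Antxr1), Sdc3, a heparan sulfate proteoglycan, and Igsf3. Also in it were Olfr1495, Asgr1, Pcdh10 and Nfasc, which are described with library WT 1.

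The 12 transporters and other membrane proteins had 613 to 2813 RPF counts. Tmem245 had 546, 324 and 326 in WT and 648, 587 and 382 in KO, and Slc7a1, the carrier of basic amino acids, had 181, 138 and 188 in WT and 456, 470 and 282 in KO with 1 RNA count. Cav2, of caveolae, and Emp1 had 2204 and 2172 counts in all, and 4507 and 4497 per kilobase of coding sequence. The group also held Slc34a1, Tmem47, Gpm6a, Ttyh2, Cyyr1, Cmtm6 and Serinc5.

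Among the 13 signalling enzymes and adaptors, with 608 to 1957 RPF counts and a median 3′ UTR of 3523 bases, were Prkacb, a catalytic subunit of protein kinase A, Ppp3r1, Ppm1l, Tollip, the insulin receptor substrate Irs1, Crkl, and Mob1a and Mob1b, cofactors of Hippo kinases. Also in the group were She, Itprip, Kctd12, Plekhg1 and Amot. The 12 transcription factors and regulators had 619 to 1559 RPF counts and included Sox7, Esrrb, Mnt, Foxj3, Foxk1, Elk4, Zfp703, Zfp871, Zfp366 and Mn1. A symbol search for C2H2 zinc finger proteins found 4 members among 35 names with at least 600 RPF counts (1.92% over all such names that the rule allows). The member of them with most counts, Zfp36l1, is however a CCCH protein that binds AU-rich elements and promotes mRNA decay. Zfp36l1 (chr12:80107754-80113013, minus strand, 2 exons) had 596, 443 and 518 RPF counts in WT and 708, 447 and 716 in KO, and 8 RNA counts, all of them in WT. The other RNA-binding or RNA-modifying members were Ptbp3, Ro60, which binds Y RNAs, and Tent5c, a poly(A) polymerase, whose CPM varied widely within both genotypes (WT 29.4 ± 16.9, KO 44.7 ± 22.8, SD over 3 libraries).

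Metabolic genes made up 20 members. Of the 4 mitochondrial ones, Timm29, a subunit of the inner membrane carrier translocase (chr9:21592722-21595970, plus strand, 2 exons), had 350, 392 and 404 RPF counts in WT and 463, 438 and 334 in KO, with 8 RNA counts. Scaled to CPM, every KO library of Timm29 was lower than every WT library. Mcu, the pore of the calcium uniporter, had 98, 129 and 126 in WT and 318, 194 and 136 in KO, and the others were Opa3 and Gatm. The 8 lipid and lipidation enzymes, with 766 to 1996 counts, included the fatty acid elongase Elovl5, Selenoi and Etnk1 of ethanolamine phospholipid synthesis, the sterol enzyme Hsd17b7, Sgpp1, Dagla and Zdhhc9. The 5 genes of glycogen and sugar metabolism were Epm2a, the glycogen phosphatase laforin, its partner Epm2aip1, Ppp1r3d, a targeting subunit that brings protein phosphatase 1 to glycogen, Pfkfb3 and Myorg. Nt5c1a, Gda and Enpp4 act on nucleotides or their bases, with 728 to 1247 counts.

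The 9 members of protein quality control, ubiquitin and membrane traffic had 602 to 1373 RPF counts and a median 3′ UTR of 3338 bases: Edem3, Tor1aip2, Rnf144b, Trim56, Uevld, Asb18, Rhbdd1, Ston1 and Tbck. Immune defence had 4, with 658 to 879 counts: the interferon-induced GTPase Irgm2, Irgq, the NADPH oxidase subunit Cybb and the granzyme inhibitor Serpinb9. Of the 10 members not assigned, Ankrd52, a regulatory subunit of protein phosphatase 6 (chr10:128377119-128394006, plus strand, 28 exons), had 323, 321 and 304 counts in WT and 498, 454 and 352 in KO, with 11 RNA counts. Scaled to CPM, WT and KO libraries of Ankrd52 overlapped (log2 fold change -0.05). The lists of olfactory receptors, cadherins and solute carriers held 1, 1 and 3 members, among 1, 12 and 75 names with at least 600 RPF counts. Lists of myosins (15 names with at least 600 RPF counts), ABC transporters (24), dyneins, kinesins and cilia proteins (40) and other G protein-coupled receptors by symbol (16) held none. Over all names with at least 600 RPF counts that the rule allows, the share of members was 1.92%. Lists of this size are too small to read their counts as a result.

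A group of 7 members had its footprints concentrated in WT 1. They were chosen after their values were seen, by a CPM in WT 1 of more than 2 times the higher of WT 2 and WT 3, so the excess is a description. The same criterion was met by 29 of the 5612 comparison names (0.517%) and 317 of the 11153 names tested (2.84%), against 6.36% of members. Of the 7, 5 reached 600 RPF counts only with WT 1, so the rule itself raises the share of members. The comparison names also had a higher median RPF count (1546.5 against 928), so these shares are not like for like. No member met the criterion for WT 2, WT 3, KO 2 or KO 3. For KO 1 it was met by 5 members, of which Blcap is not among the 7. The 7 were Olfr1495, an odorant receptor, Asgr1, Slc34a1, the phosphate carrier of the kidney tubule, Pcdh10, a protocadherin, Gatm, the first enzyme of creatine synthesis, Dagla, which makes an endocannabinoid, and Nfasc, an axonal adhesion protein. Several of these are known from nerve, kidney or liver more than from heart muscle.

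Olfr1495 (chr19:13764606-13770248, plus strand) had 1173, 304 and 266 RPF counts in WT and 764, 254 and 227 in KO. Pcdh10 (chr3:45378425-45435623, plus strand) had 582, 57 and 53 in WT and 221, 77 and 50 in KO, and Slc34a1 (chr13:55398187-55415592, plus strand) had 588, 121 and 77 in WT and 199, 58 and 49 in KO. These 3 had no RNA count in any of the 6 libraries, where 3 counts would have been 0.355 to 0.452 CPM. The fourth member at 0 in RNA was Rhbdd1, an intramembrane protease. Asgr1 had 719, 224 and 165 in WT and 372, 155 and 169 in KO, with 2 RNA counts. In WT all 4 of these were highest in WT 1, and in KO all were highest in KO 1 by CPM.

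Gatm, Dagla and Nfasc had 386, 304 and 252 RPF counts in WT 1 and between 53 and 205 in every other library. All 7 were highest in KO 1 among the KO libraries, where the next highest was lower by factors of 1.28 (Gatm) to 2.64 (Pcdh10), against 2.51 (Asgr1) to 7.97 (Pcdh10) in WT. By comparison, KO 1 was the highest KO library for 36 of the other 103 members (35.0%). Among names that met the same WT 1 criterion, it was so for 17 of 29 comparison names and 135 of 317 names tested. The 7 summed to 824, 253 and 163 CPM in WT and 283, 106 and 150 CPM in KO. The other 103 members summed to between 3576 and 3814 CPM in every library. Among the 7, the highest share of coding windows found in another gene was 4.07% (Olfr1495).

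Marker lists of other tissues were summed in the same libraries. A kidney tubule list of 8 genes had 154, 73.8 and 44.2 RPF CPM in WT and 63.9, 33.7 and 37.5 in KO, with Aqp2 and Slc22a6 at 0. Without Slc34a1 it had 32.7, 41.9 and 27.9 in WT and 37.1, 25.2 and 27.2 in KO, so WT 1 was not the highest. A liver list of 7 genes had 32.1, 144 and 72.3 in WT and 32.1, 74.8 and 53.9 in KO, with Serpina1a at 0 and WT 1 the lowest WT library. A nerve list of 7 genes had 12.8, 6.85 and 6.98 in WT and 5.79, 7.18 and 9.64 in KO, with Rbfox3 at 0, and here WT 1 was the highest. In RNA the nerve list had 0.43, 0.52 and 0.31 CPM in WT, with 4 of its genes at 0. WT 1 was also the highest RPF library for the heart muscle list (127398 CPM). For an erythroid list it was the lowest, at 353 CPM against 926 in WT 2 and 1502 in WT 3. The part of other tissue in the result was not tested.

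**Figure D4:**
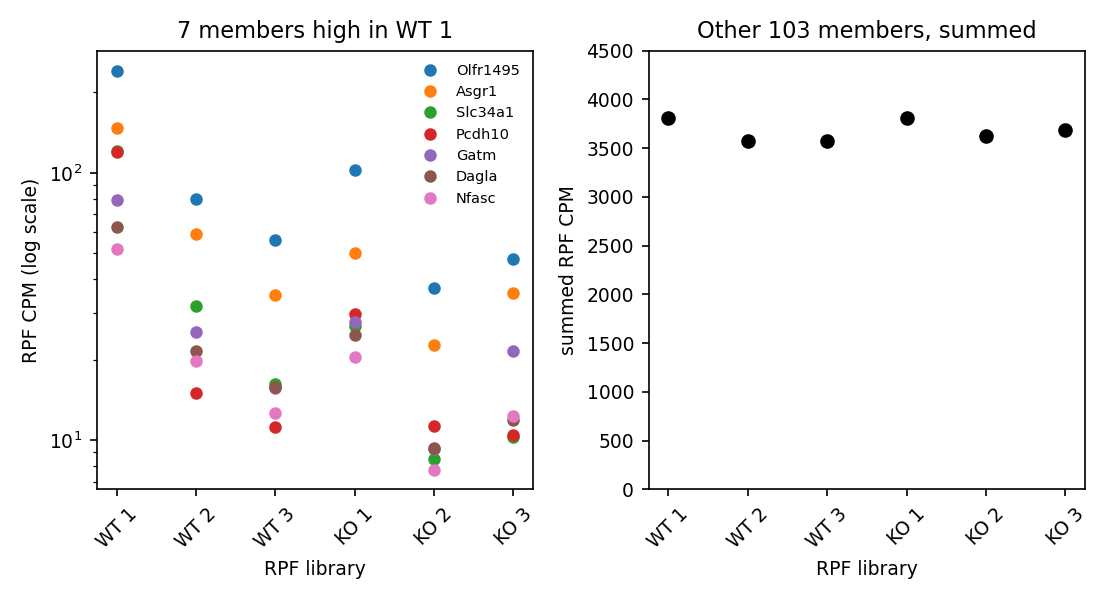
Left, RPF CPM (log scale) of the 7 members that are high in WT 1, by library, 1 point per gene; right, summed RPF CPM of the other 103 members in the same libraries. The 7 genes stand highest in WT 1 and next in KO 1 in most cases, while the sum on the right stays between 3576 and 3814 CPM.

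Footprints of the members were then compared between KO and WT. The rule summed both genotypes and did not use their difference, except that a high count in a single library could carry a gene past 600. Without WT 1, 5 of the 7 genes high in that library had fewer than 600 RPF counts: Slc34a1 504, Pcdh10 458, Gatm 541, Dagla 462 and Nfasc 399. The same held for 23 of the other 103 members, as 1 library less lowers every sum. At an adjusted p below 0.05, 0 of the 110 members changed in edgeR's quasi-likelihood test with Benjamini-Hochberg adjustment over 11153 names, where 1 name (0.00897%) was called. The lowest adjusted p of a member was 0.566, for Slc7a1. At an unadjusted p below 0.05 there were 14 members (12.7%, against 5.96% of all names tested), 4 higher and 10 lower in KO, and 7 of the 10 lower ones were the genes high in WT 1. Since WT 1 helped to choose those 7, nothing is read from the excess of lower members over the background. DESeq2 called 0 members. At an unadjusted p below 0.05 it had 9 of the 110 members, against 669 of 15922 names. The median log2 fold change of the members was -0.02 (quartiles -0.18 and 0.15), against 0.00 (-0.20 and 0.20) over all names, with 54 members higher and 56 lower. Without the 7 genes it was 0.01.

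Without a filter on low counts, 8 members passed the threshold (7.27%, against 0.377% of 15922 names, or 60): the 7 genes high in WT 1, all lower in KO (0.295% of all names were called lower), and Slc7a1, higher. All 7 were picked by their level in WT 1, and 5 of them pass 600 RPF counts only with that library. A high WT 1 also lowers KO against WT, so the 2 percentages are a description only. Slc34a1 then had an adjusted p of 2.2e-13 and Slc7a1 one of 0.042. With the filter, the 7 genes had log2 fold changes from -1.01 (Olfr1495) to -1.88 (Slc34a1), each with an adjusted p of 0.834. With the replicate number as a block, Slc34a1 passed the threshold (-1.66, adjusted p = 0.024). With WT 1 left out, they ranged from 0.41 (Pcdh10, a change of sign) to -0.63 (Slc34a1), and with both WT 1 and KO 1 left out from -0.26 (Pcdh10) to -1.35 (Slc34a1). In simulated counts the filtered test found 12.2% of changes of 1.5-fold, 54.0% of 2-fold, 85.4% of 3-fold and 95.8% of 4-fold. The changed genes were drawn from all names tested, so these shares do not give the power for members. Changes of 1.5-fold were mostly missed there with 3 libraries per genotype. The lack of called members therefore does not show that their footprints were equal.

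All WT libraries lay on one side of all KO libraries for 15 members (13.6%, against 12% of all names tested), 11 higher in KO (10.0%, against 6.27%) and 4 lower (3.64%, against 5.77%). Slc7a1 was at 37.2, 36.4 and 39.8 CPM in WT and 61.4, 68.9 and 59.1 in KO, a log2 fold change of 0.74 (SE 0.17). Tmem47, a small membrane protein of cell junctions, was at 16.3, 12.4 and 18.4 in WT and 24.0, 23.6 and 22.8 in KO (0.58, SE 0.23), and Bche was at 23.0, 28.2 and 21.8 in WT and 34.4, 33.7 and 35.8 in KO (0.51, SE 0.20). Uevld (0.49, SE 0.26) and Irgm2 (0.43, SE 0.22) followed. Edges were narrow in some cases: Uevld was at 20.6 CPM both in its highest WT and in its lowest KO library, apart only in later digits. Irgm2 overlaps the related gene Igtp over 162 bases on the same strand.

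The 4 members lower in every KO library were Ppp1r3d, Mn1, Timm29 and Serpinb9. Ppp1r3d was at 25.5, 30.6 and 19.9 CPM in WT and 17.8, 16.6 and 12.8 in KO, a log2 fold change of -0.68 (SE 0.25). Mn1, a transcriptional coregulator, was at 29.6, 32.2 and 32.4 in WT and 20.5, 19.2 and 23.7 in KO (-0.57, SE 0.20). Timm29 was at 72.0, 103 and 85.4 in WT and 62.4, 64.2 and 70.0 in KO (-0.41, SE 0.17), and Serpinb9 at 22.4, 23.2 and 21.1 in WT and 20.3, 17.4 and 19.1 in KO (-0.23, SE 0.22). The adjusted p of these 4 and of Tmem47, Bche, Uevld and Irgm2 lay between 0.834 and 0.894 in edgeR's test, so none passed.

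**Figure D5:**
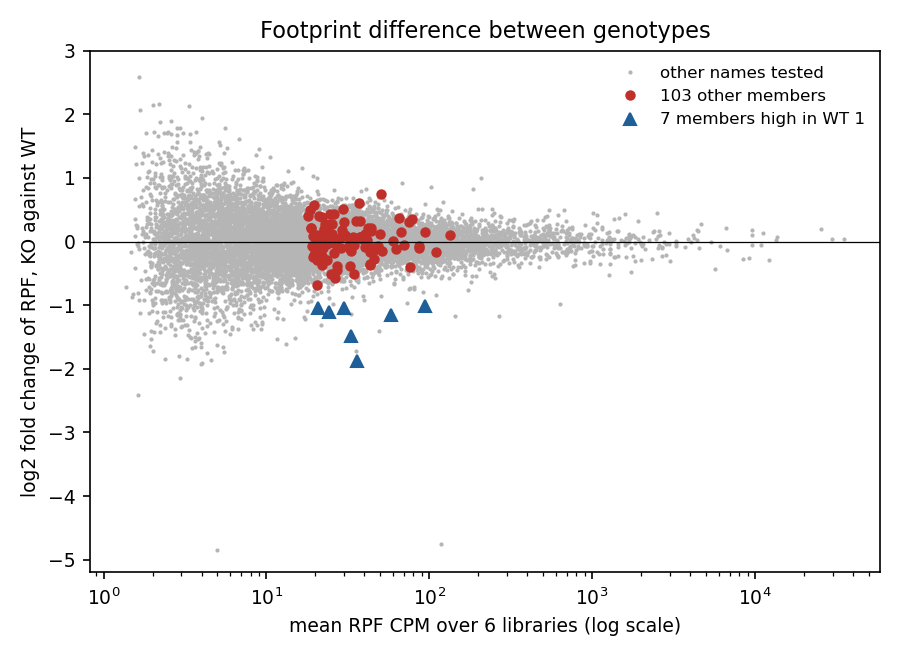
Log2 fold change of RPF, KO against WT, from edgeR against the mean RPF CPM over the 6 libraries (log scale) for the 11153 names tested; red points are 103 members and blue triangles the 7 members high in WT 1. The red points lie between -0.68 and 0.74 among the other names, and the triangles between -1.01 and -1.88.

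In RNA, 0 of the 110 members passed the filter on low counts, which 8379 names passed, so neither a genotype difference in RNA nor one in translational efficiency, the ratio of footprints to RNA, was tested for any of them. Their RNA counts in single libraries were between 0 and 6.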

How the data were processed

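For each of 12 libraries the deposited file holds raw counts, 1 whole number for every transcript name. Per the submitters' processing notes, cutadapt 1.18 and Bowtie2 2.4.2 were used; the build, the counted region, strand use and the assignment of reads with several matches are not given in the sources used here. Groups came from the genotype and assay labels, and replicate numbers from the titles. The members and lists were chosen with earlier results of these data known, and the role groups after values were seen.

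Transcript structures came from GENCODE M21 (GRCm38), matched by name for 21428 of 21669 names and 108 of 110 members (not Myorg and Ro60). Shared sequence was scored as identical 28-base windows in transcripts of other genes. CPM used library sizes scaled by TMM. For RPF, edgeR 4.0.16 in R 4.3.3 fitted the 6 libraries with a genotype term (filterByExpr, minimum count 10; glmQLFit and glmQLFTest), with Benjamini-Hochberg adjustment and a threshold of 0.05. A standard error is |log2 fold change| over the root of the F statistic. On simulated counts with no gene changed, 1 of 11153 names was called, and with genes changed 8 unchanged ones were. Counting floors cover counting error only, since copies made by PCR cannot be recognised.

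Named were the 10 members with most RPF counts, up to 5 higher and 5 lower in KO with no overlap of libraries, up to 4 per gene class, those nearest each limit, the 3 with the longest and shortest 3′ UTR, the most shared windows and the largest share in a single library. Any further gene was picked with its values in view. Alternatives were DESeq2 1.42.0, median-of-ratios scaling, raw totals, no filter, a replicate block, leaving out libraries, other limits for the rule and windows of 24 and 32 bases. Leaving out the 7 members high in WT 1 or the 4 histones was chosen after seeing the data. Some members are not reported here by name.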

Additional observations from a re-analysis of the deposited data

How the results depend on the processing

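At 0, the number of members called between genotypes was unchanged in edgeR with median-of-ratios scaling, in DESeq2 and with any library left out; it was 8 without a filter on low counts and 1 with the replicate number as a block (Slc34a1, log2 fold change -1.66, adjusted p = 0.024). Over all names tested, 1 was called, against 6 in DESeq2, 60 without the filter, 4 with the replicate block and 1 to 2 with a library left out (2 without WT 2 or without WT 3). Same-numbered WT and KO libraries are different animals, and their deviations correlated at 0.059, 0.030 and 0.0051, under the limit of 0.1 used to treat numbers as pairs. WT 1 and KO 1 correlated best with each other, which did not hold for numbers 2 and 3. The best KO match of WT 2 was KO 2, but the best WT match of KO 2 was WT 3. An adipocyte list was highest in WT 2 and KO 2 (572 and 416 RPF CPM, others 108 to 227). A lung epithelium list was highest in WT 3 and KO 3 (60.5 and 80.7, others 0 to 9.82). Both lists were picked after their values were seen. The erythroid list was highest in WT 3 and KO 1 (1502 and 1577). The cause of these differences was not tested. For Pcdh10 the log2 fold change of -1.49 ranged from -2.16 to 0.41 with a library left out, and the change of sign was without WT 1 (adjusted p = 0.853).

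The number of members was 271 at 300 or more RPF counts, 36 at 1200 or more, 42 at 6 or fewer RNA counts and 286 at 24 or fewer, by construction of the rule. Their share of RPF counts, 0.397%, became 0.608%, 0.211%, 0.128% and 1.12% under these limits and 0.351% without WT 1 and KO 1 of both assays, where the limits were also scaled to 400 RPF and 8 RNA counts for 4 libraries (88 members). The share of their 28-base windows found in another gene, 1.81%, became 2.57%, 1.36%, 2.44% and 2.21% under these limits, 1.32% with those 4 libraries and limits, 2.13% with windows of 24 bases and 1.60% with 32. Median coding length was 1203 bases, and 1005 with at most 6 RNA counts. Of the values that answer a comparison, 48 stayed within their error or within 1.5 times under an alternative and 24 did not. The median 3′ UTR of members lay between 2412 and 2839.5 bases under all alternatives tried. The members' median log2 fold change lay between -0.04 and 0.03 and was above 0 without WT 1, without the 7 genes and without the histones. At these depths 12 RNA counts over 6 libraries leave no room to rank the members by RNA.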
